A study of Oryza sativa Japonica Group with 4 samples.

Results

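The genes that supply ADP-glucose to starch synthesis were examined in RNA-seq data from rice endosperm at control and high temperature. They are 6 genes for subunits of ADP-glucose pyrophosphorylase (AGPase) and the gene of the plastid ADP-glucose transporter BT1. They were chosen by gene ID, and all of their transcript models in the deposited table were taken, which gave 18 models of 7 genes among 67393 models of 56797 gene IDs. The small subunits are encoded by LOC_Os08g25734 (AGPS2) and LOC_Os09g12660 (AGPS1), and the large subunits by LOC_Os01g44220 (AGPL2), LOC_Os05g50380, LOC_Os03g52460 and LOC_Os07g13980. BT1 is LOC_Os02g10800. The table describes all 15 AGPase models as large subunits, including the 4 models of the small subunit genes, and describes BT1 as a mitochondrial carrier protein, so the roles given here come from textbook knowledge of rice and not from the table.

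AGPase makes ADP-glucose, the glucose donor of starch synthases, from glucose 1-phosphate and ATP, and the active enzyme is a heterotetramer of small and large subunits. In most plant tissues the enzyme works in the plastid. In cereal endosperm most of its activity lies in the cytosol, and ADP-glucose then enters the amyloplast through BT1, a carrier of the inner envelope known from the brittle1 mutant of maize. In rice endosperm the cytosolic enzyme is built from AGPL2 and from a form of AGPS2, and loss of either gives shrunken grains. A further form of AGPS2, made from an alternative start of the gene, carries a plastid transit peptide, as do AGPS1 and the products of the other large subunit genes.

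Plants of the cultivar Nipponbare (Oryza sativa ssp. japonica) grew at 28°C for the 12 h day and 22°C for the 12 h night, and 5 days after pollination they were either kept there or moved to 35°C by day and 28°C by night. The paper states that fresh seeds were collected after 5 days of treatment and that RNA came from endosperm. It does not describe how endosperm was separated from the seed. There were 2 libraries for each temperature. The labels do not say whether replicates came from separate plants, so the spread between libraries may be technical in part. The libraries held 6395533 to 11492692 counted reads, and no library could be taken for a copy of another, since counting noise alone did not account for the difference in any pairing (chi-square over its degrees of freedom, 19.8 to 110). The closest libraries did not share a temperature. This value was 19.8 between control replicate 1 and high temperature replicate 2 and 28.8 between control replicate 2 and high temperature replicate 1, against 77.4 between the controls and 68.4 between the heated libraries. It was computed from counts scaled by total reads alone, so uneven shares of abundant transcripts enter into it. The labels were taken as given, and whether labels or handling were crossed between libraries, which would bear on every comparison of temperatures here, was not tested. Values are given below with replicate 1 before replicate 2 in each temperature. The share of reads in LOC_Os09g00999.1 together with LOC_Os09g01000.1 was uneven between replicates. It was 8.51% and 25.9% at control temperature and 35.2% and 10% at high temperature. TMM factors, which scale each library by the bulk of its transcripts, were 1.32 and 0.756 for the controls and 0.891 and 1.12 for the heated libraries. After this scaling, the correlation of log2 levels was 0.936 between control replicate 1 and high temperature replicate 2. It was 0.934 between control replicate 2 and high temperature replicate 1, 0.932 between the heated libraries and 0.924 between the controls. The remaining pairings had 0.906 and 0.91. As a check of the tissue, glutelin and prolamin transcripts, the storage proteins of endosperm, summed to between 266388 and 493515 CPM (reads relative to the TMM-scaled size of the library) in every library.

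All 18 models had reads in every library, from 35 to 20569, and all of them passed the filter on low counts, which asked for 1 CPM or more in 2 or more libraries. The models of a gene share exons, and reads were split evenly among several of them. Each of the 7 models of AGPL2 held 12.8% to 15.5% of the reads of the gene in every library. The longer model of AGPS2, LOC_Os08g25734.1 (2063 bases), held 40.4% to 42.9% and LOC_Os08g25734.2 (1944 bases) held 57.1% to 59.6%, and the models were not assigned here to the cytosolic or the plastid form. For AGPS1 the larger share, in LOC_Os09g12660.1, was 50.9% to 54.3%. For BT1 the largest, in LOC_Os02g10800.3, was 34.9% to 37.7%. None of these shares moved between libraries by more than 4 percentage points.

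Whether shared reads were counted once or for every model sets the level of a gene with many models. Across the table, genes with exactly 2 models within 0.5% of each other in length and at least 50 reads in each gave 114 to 220 pairs per library, and only 1.82% to 2.63% of the pairs held equal counts. The squared difference of the counts over their sum had a median of 0.720 to 0.928, against 0.455 if reads were dealt to the models at random. Counting each shared read for both models would leave near-equal counts in models that share most exons, so the level of a gene was taken as the sum over its models. Levels from the best-expressed model alone are given beside it.

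On the scale of TMM-normalized RPKM, which divides by length and so allows genes to be compared, AGPS2 was the highest of the 7 genes. Its summed level was 1197 and 1497 in the controls and 1000 and 1163 after heat, with a mean over the 4 libraries of 1214. AGPL2 followed with a mean of 746.6 and BT1 with 589.1. AGPS1 had a mean of 132.0, LOC_Os05g50380 of 57.4, LOC_Os03g52460 of 30.2 and LOC_Os07g13980 of 1.98. Between neighbours in this order, AGPL2 and BT1 changed places in control replicate 2, where BT1 had 897.3 and AGPL2 765.5. LOC_Os05g50380 lay above LOC_Os03g52460 in each of the 4 libraries, but their ranges over the libraries overlapped. All other neighbours kept their order in every library, without overlap of their ranges. Taking the best-expressed model of each gene instead, AGPL2 (119.7, LOC_Os01g44220.6) lay below BT1 (218.9, LOC_Os02g10800.3), and LOC_Os05g50380 (29.2) lay just below LOC_Os03g52460 (30.2), so those places depend on how models are combined.

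**Figure D1:**
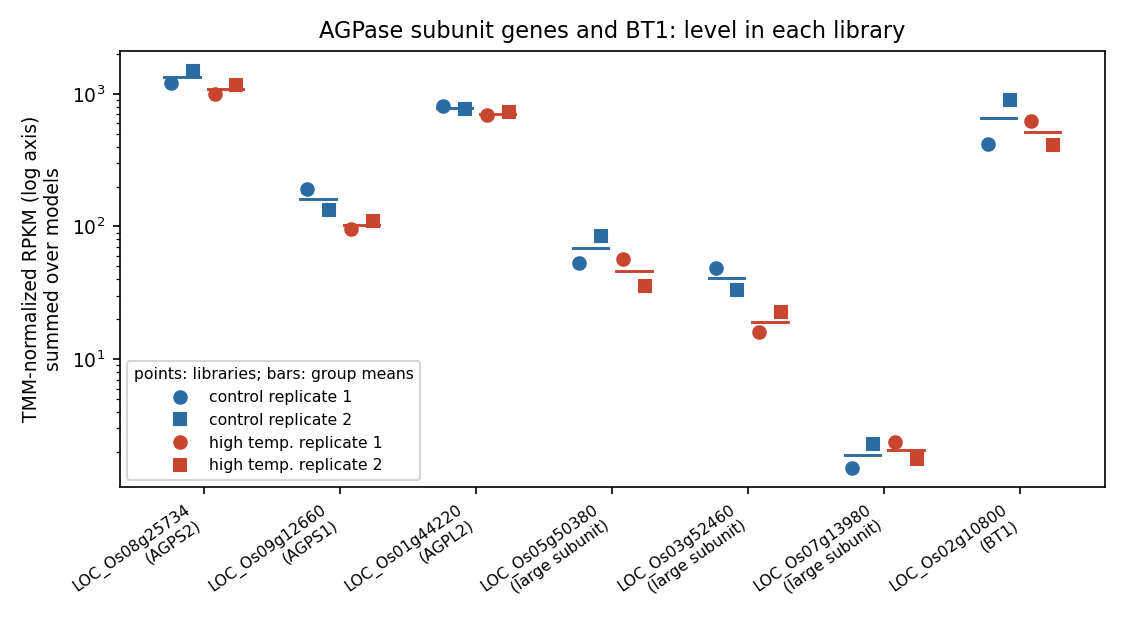
TMM-normalized RPKM (log axis), summed over the models of each gene, in the 4 libraries. Blue points are control libraries, red points high temperature libraries (circles replicate 1, squares replicate 2), and bars are group means of 2 libraries. AGPS2, AGPL2 and BT1 lie between 413.0 and 1497 in every library, and LOC_Os07g13980 between 1.52 and 2.36.

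The comparison between temperatures asked how 5 days of heat during grain filling changed the messages of these genes. No member transcript passed the adjusted threshold of 0.05 in edgeR's quasi-likelihood test (Benjamini-Hochberg adjusted p from 0.599 to 0.974), and neither did any of the 27358 transcripts tested (0%). At an unadjusted p under 0.05, 1 of the 18 models was lower at high temperature, against 2.79% of all transcripts, and 0 were higher, against 4.15%. DESeq2 called 58 transcripts and limma on log2(RPKM + 1) called 59, and no member was among them. In the edgeR fit 17 of the 18 models had a log2 fold change below 0, with a median of -0.30, beside 0.0022 over all transcripts tested. Because models of a gene share reads, the 18 are not 18 measurements. With reads summed per gene, 6 of the 7 genes had values below 0, with a median of -0.35 beside 0.003 over 19303 genes, and again no gene passed the adjusted threshold (1352 of the 19303 had an unadjusted p under 0.05, and 1 of the 7). In bulk endosperm, fewer cells that express a gene and less of its RNA per cell cannot be told apart.

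**Figure D2:**
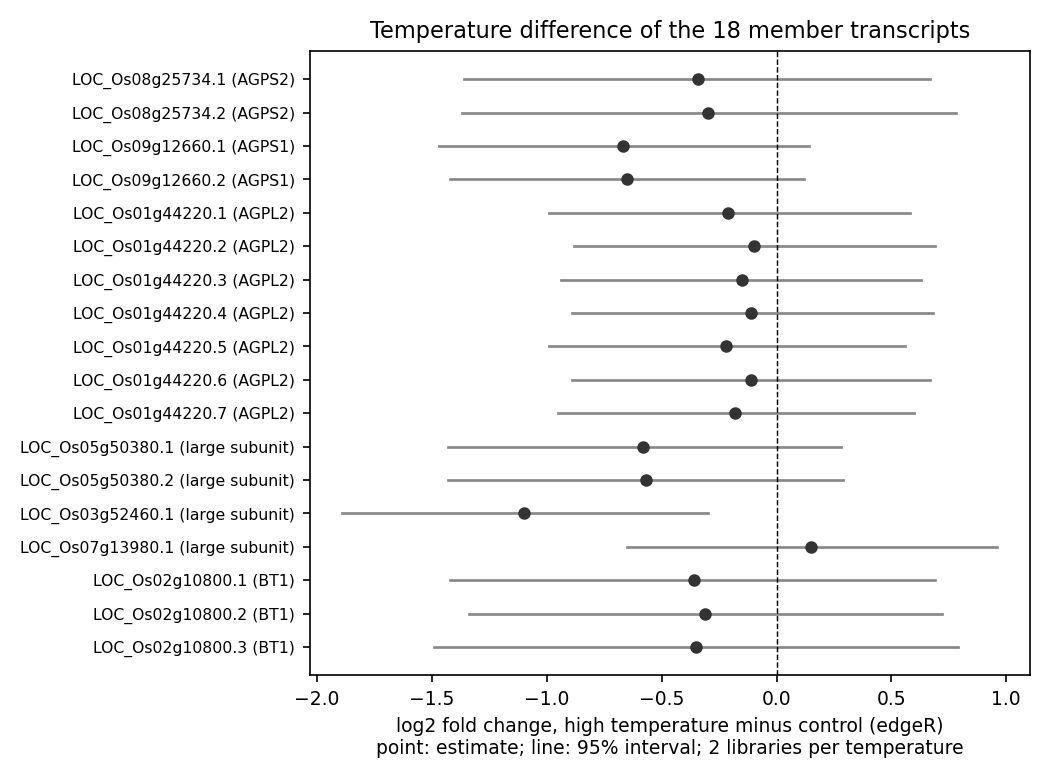
Log2 fold change (high temperature minus control) of each of the 18 member transcripts from the edgeR fit over all transcripts. Points are estimates and lines 95% intervals. Only the interval of LOC_Os03g52460.1 lies wholly below 0, and no transcript passed the adjusted threshold.

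The small subunit AGPS2 had 2386 and 2982 TMM-normalized CPM at control temperature, summed over its models, and 1991 and 2318 at high temperature. Both high temperature values lay below both controls, though high temperature replicate 2 and control replicate 1 were only 69 CPM apart. The log2 fold change was -0.34 for LOC_Os08g25734.1 (95% interval -1.36 to 0.67, adjusted p = 0.924) and -0.30 for LOC_Os08g25734.2 (-1.37 to 0.78, adjusted p = 0.943, edgeR). The intervals thus held falls to below 0.5 times the control as well as rises. Without control replicate 2 the values were -0.19 and -0.12, and without high temperature replicate 1 they were -0.20 and -0.22. They were -0.49 and -0.46 without control replicate 1, and -0.53 and -0.40 without high temperature replicate 2.

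AGPS1, the other small subunit, was expressed at about 0.109 times the level of AGPS2 on the RPKM scale. It had 382.3 and 264.7 CPM at control temperature and 191.7 and 218.9 CPM at high temperature, so the groups did not overlap and the controls differed more from each other than the high temperature libraries did. Its models had log2 fold changes of -0.67 (LOC_Os09g12660.1, standard error 0.35, adjusted p = 0.780) and -0.65 (LOC_Os09g12660.2, standard error 0.33, adjusted p = 0.776, edgeR). Without control replicate 1, the higher of the controls, both were -0.37.

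AGPL2, the large subunit of the cytosolic enzyme, varied least of the 7 genes with TMM scaling, though not with library size alone, where it ran from 1350 to 2482 CPM and LOC_Os07g13980 from 4.74 to 5.76 CPM. Its 4 libraries held 1889 and 1792 CPM (control) and 1618 and 1696 CPM (high temperature), a mean of 1841 ± 68.4 (SD, n = 2) against 1657 ± 55.4 (SD, n = 2). All 7 models had fold changes in the same narrow range, from -0.10 (LOC_Os01g44220.2) to -0.22 (LOC_Os01g44220.5) on the log2 scale, with adjusted p from 0.943 to 0.974 (edgeR). For 6 of the 7 models both high temperature libraries lay below both controls, and for LOC_Os01g44220.2 high temperature replicate 2 (251.7 CPM) lay just above control replicate 2 (251.1 CPM). With reads summed per gene, the log2 fold change was -0.16 with a 95% interval of -1.21 to 0.90, since the fit shares its estimate of spread with all other genes.

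LOC_Os03g52460, a large subunit gene with a single model, showed the largest difference of the 7. The controls had 102.5 and 69.7 CPM (1548 and 421 reads), and the heated libraries 33.3 and 47.2 CPM (231 and 338 reads). The high temperature values lay below both controls, with a log2 fold change of -1.10 (95% interval -1.89 to -0.30), or 0.467 times the control. Its unadjusted p of 0.0127 became 0.599 after adjustment over all transcripts (edgeR). The unadjusted p stayed under 0.05 in 11 of 15 alternative fits. It did not without high temperature replicate 1, with library size alone in place of TMM, or in either limma fit, and the fold change ran from -1.40 to -0.80 when single libraries were left out. The adjusted p ran from 0.0185 to 1 over the 15 alternatives and was under 0.05 in 1 of them, an edgeR fit blocked on crossed replicate numbers that was chosen after seeing the data.

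LOC_Os05g50380 differed between replicates as much as between temperatures. It had 114.8 and 181.9 CPM at control temperature and 122.6 and 76.2 CPM at high temperature, and high temperature replicate 1 lay above control replicate 1. Its models had log2 fold changes of -0.58 (LOC_Os05g50380.1, adjusted p = 0.826) and -0.57 (LOC_Os05g50380.2, adjusted p = 0.827, edgeR). Without control replicate 2 these were -0.22 and -0.20, and without high temperature replicate 1 they were -0.95 and -0.97.

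LOC_Os07g13980, the remaining large subunit gene, was the least expressed of the 7. It held 63 and 38 reads in the controls (4.17 and 6.29 CPM) and 45 and 35 reads after heat (6.49 and 4.89 CPM). The exact Poisson 95% intervals of these values, which cover counting error only, overlapped in all 4 libraries (3.21 to 5.34 CPM in control replicate 1 and 4.73 to 8.69 CPM in high temperature replicate 1). It was the only member with a log2 fold change above 0 (0.15, 95% interval -0.65 to 0.96, adjusted p = 0.961, edgeR), and this changed sign without control replicate 1 (-0.15) and without high temperature replicate 1 (-0.07).

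BT1, the transporter, had the widest spread within a temperature among the highly expressed members. The controls had 710.0 and 1515 CPM, and the heated libraries 1055 and 697.2 CPM. The groups overlapped, and the difference between the controls was larger than the difference between the group means (1112 ± 569.0 against 876.3 ± 253.3, SD, n = 2). The log2 fold changes were -0.36, -0.31 and -0.35 for LOC_Os02g10800.1, LOC_Os02g10800.2 and LOC_Os02g10800.3 (adjusted p from 0.923 to 0.936, edgeR). Control replicate 2 set this direction. Without it the fold changes were 0.26, 0.28 and 0.36, and without control replicate 1 they were -0.81, -0.73 and -0.84.

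For 11 of the 18 models, both high temperature libraries lay below both controls on the TMM-normalized scale, beside 17.7% of all transcripts tested, and for none did both lie above, beside 19.1%. By gene these were 4 of the 7 (AGPS2, AGPS1, AGPL2 and LOC_Os03g52460), beside 17.5% of all genes. The count rests on the scaling between libraries. With library size alone, an alternative chosen after seeing the data, 4 of the 18 models lay wholly below the controls, beside 9.08% of all transcripts, and they were others: both models of LOC_Os05g50380, LOC_Os02g10800.1 and LOC_Os02g10800.2. On that scale AGPL2 had 2482 and 1350 CPM at control temperature and 1436 and 1900 CPM at high temperature, so that its replicates lay close together with TMM scaling and far apart with library size alone. The sign of the fold change of every member was the same under each scaling and each tool tried, and changed only for BT1 and LOC_Os07g13980, when single libraries were left out.

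Ratios between members within a library do not depend on the scaling between libraries. The level of AGPL2 relative to AGPS2 was 0.673 and 0.511 in the controls and 0.690 and 0.623 after heat, so the groups overlapped (exact permutation test, two-sided, p = 0.667). With 2 libraries against 2 the smallest p this test can give is 0.333. The level from the best-expressed models gave a ratio of 0.169 over the 4 libraries in place of 0.625, since AGPL2 has more models than AGPS2. Summed over genes, small subunits stood at 1.43 to 1.84 times the large subunits, and at 3.96 to 4.73 times with the best-expressed model of each gene.

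Most of the large subunit level was AGPL2 in every library. Its share was 88.6% and 86.5% in the controls and 90.2% and 92.4% after heat, higher in both high temperature libraries than in both controls (exact permutation test, two-sided, p = 0.333, the smallest possible). LOC_Os03g52460 took 5.38% and 3.76% at control temperature and 2.08% and 2.88% at high temperature. With the best-expressed model of each gene, the share of LOC_Os03g52460 was 24.2% and 16.5% against 9.95% and 14.1%, and that of AGPL2 was 61.7% and 61.2% against 70.5% and 73.6%, so the sizes of the shares depend on how models are combined while both still separated the temperatures. From sums over models, LOC_Os05g50380 took 4.50% to 9.52% and LOC_Os07g13980 0.167% to 0.308%, both with overlap between the temperatures, and from the best-expressed models their means over the 4 libraries were 16% and 1.12% in place of 6.82% and 0.240%. Among the small subunits, AGPS2 took 86.2% in control replicate 1 and 91.3% to 91.9% in the other 3 libraries. These were among 10 ratios and shares computed, and 2 of the 10, those of AGPL2 and LOC_Os03g52460, separated the temperatures.

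**Figure D3:**
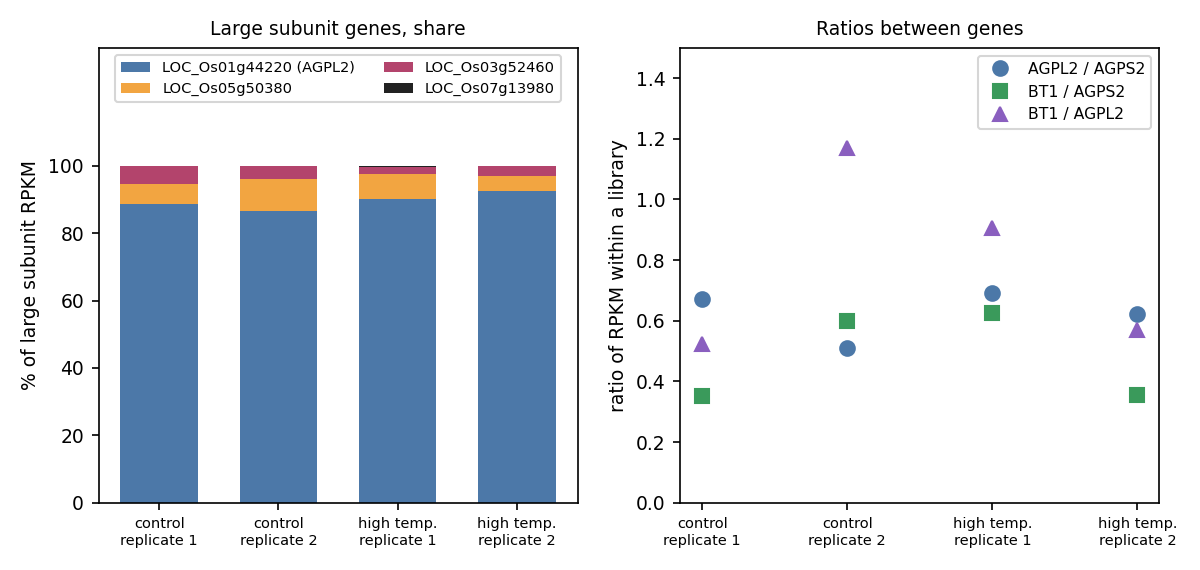
Left, percent of the summed large subunit level (RPKM) contributed by each of the 4 large subunit genes in each library. Right, ratios of summed RPKM within each library. AGPL2 makes up 86.5% to 92.4% of the large subunit level, and the ratio of BT1 to AGPL2 ranges from 0.522 to 1.17, highest in control replicate 2.

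The members did not all vary together across the 4 libraries. Relative to its own mean on the log2 scale, BT1 was 0.68 higher in control replicate 2 and 0.16 higher in high temperature replicate 1, and lower in control replicate 1 (-0.41) and high temperature replicate 2 (-0.44). LOC_Os05g50380 was likewise highest in control replicate 2 (0.62) and lowest in high temperature replicate 2 (-0.63). LOC_Os03g52460 (0.82) and AGPS1 (0.58) were instead highest in control replicate 1 and lowest in high temperature replicate 1 (-0.80 and -0.41). AGPL2 was highest and lowest in the same libraries over a narrower range (0.11 and -0.11). AGPS2 was highest in control replicate 2 (0.32) and lowest in high temperature replicate 1 (-0.27). The ratio of BT1 to AGPS2, which needs no scaling, was 0.599 and 0.625 in control replicate 2 and high temperature replicate 1, and 0.351 and 0.355 in control replicate 1 and high temperature replicate 2. The share of reads in LOC_Os09g00999.1 and LOC_Os09g01000.1 was also high in the former pair of libraries and low in the latter. Its part in these values was not tested.

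**Figure D4:**
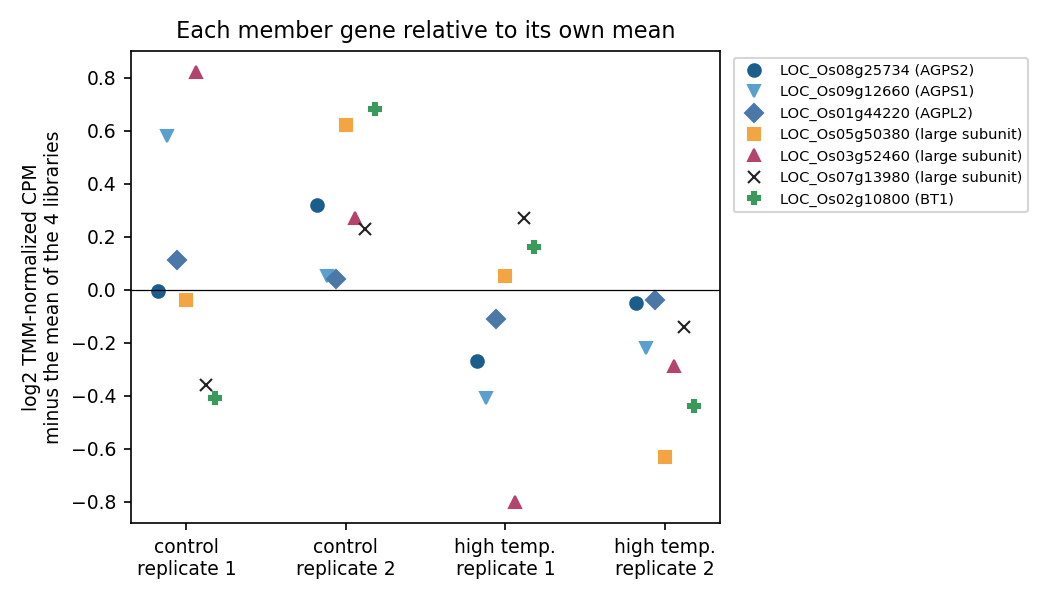
Log2 TMM-normalized CPM of each member gene, summed over models, minus its mean over the 4 libraries. Points are single libraries. BT1 lies above its mean in control replicate 2 (0.68) and high temperature replicate 1 (0.16), LOC_Os03g52460 lies highest in control replicate 1 (0.82), and AGPL2 stays within 0.11 of its mean.

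The genes whose pattern over the 4 libraries was closest to a member were found by the root mean square difference of centred log2 CPM, among 6344 genes whose best-expressed model had a mean of at least 10 CPM. Closest to AGPL2 (LOC_Os01g44220.6) were LOC_Os09g03210.1 (expressed protein, 0.0101), LOC_Os05g27960.1 (hydrolase acting on glycosyl bonds, 0.0124), LOC_Os01g46750.1 (AMP-binding enzyme, 0.0184), LOC_Os04g47830.1 (SNF2 family protein, 0.0215) and LOC_Os05g33360.1 (BAX inhibitor motif protein, 0.0239). Closest to BT1 (LOC_Os02g10800.3) were LOC_Os05g38640.1 (core histone, 0.0447), LOC_Os05g18470.1 (CRAL/TRIO domain protein, 0.0484), LOC_Os05g48760.1 (DUF1421 domain protein, 0.0494), LOC_Os01g05810.1 (gamma-glutamyltranspeptidase, 0.0610) and LOC_Os06g43790.1 (TFIID subunit, 0.0713). The histone transcript, for example, had 24.7 and 51.8 CPM at control temperature and 37.8 and 23.5 CPM at high temperature. With 4 libraries such likeness describes these libraries only. Apart from LOC_Os05g33360.1, the genes nearest to AGPL2 had 11.5 to 21.8 CPM, close to the floor of 10 CPM. Counting error at such levels was not set against these distances. No gene of the starch pathway lists described next was among the 10 nearest genes. Those lists hold few of the 6344 genes compared, so their absence says little.

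Neighbouring steps were read from lists of gene IDs, kept where the description in the table names the enzyme (26 of 34 IDs, of which 25 passed the filter by their best-expressed model). None passed the adjusted threshold (edgeR). At an unadjusted p under 0.05, 1 was lower and 2 were higher (beside 2.79% and 4.15% of all transcripts), all 3 of them starch synthases, named here after their values were seen. The model LOC_Os07g22930.2 had 21.8 and 16.7 CPM in the controls and 9.52 and 7.68 CPM after heat (log2 fold change -1.17, adjusted p = 0.513). LOC_Os06g06560.1 had 271.1 and 324.9 CPM against 561.0 and 621.2 CPM (0.99, adjusted p = 0.686), and LOC_Os01g52250.4 had 5.89 and 6.46 CPM against 11.1 and 9.77 CPM (0.76, adjusted p = 0.686). For 9 of the 25 both high temperature libraries lay below both controls, beside 17.7% of all transcripts, and for 2 both lay above, beside 19.1%, and the median log2 fold change was -0.32. Upstream of AGPase, the median was -0.44 over 5 sucrose synthases, which split sucrose into UDP-glucose and fructose, -0.34 over 2 UDP-glucose pyrophosphorylases, which turn UDP-glucose into glucose 1-phosphate, and -0.19 over 2 phosphoglucomutases.

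The most expressed gene of each upstream list varied widely between controls. Sucrose synthase LOC_Os07g42490.1 had 984.2 and 228.9 CPM at control temperature and 349.4 and 546.5 CPM at high temperature. UDP-glucose pyrophosphorylase LOC_Os09g38030.1 had 268.0 and 125.6 CPM against 131.5 and 172.0 CPM, and phosphoglucomutase LOC_Os03g50480.1 had 241.4 and 137.2 CPM against 135.6 and 173.8 CPM. In all 3 the temperatures overlapped. Control replicate 1 was the highest library in all 3, as it was in AGPS1, LOC_Os03g52460 and AGPL2. It was not the highest in AGPS2, BT1, LOC_Os05g50380 or LOC_Os07g13980.

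Downstream, where ADP-glucose is used, the 10 starch synthases had a median log2 fold change of -0.06, with 5 below 0 and 5 above. The most expressed was the granule-bound enzyme Waxy (LOC_Os06g04200.3), with 772.2 and 1280 CPM at control temperature and 680.7 and 936.3 CPM after heat, with log2 fold change -0.34 (adjusted p = 0.930, edgeR). The medians were -0.51 over 3 branching enzymes and -0.49 over 2 starch phosphorylases, and the debranching enzyme pullulanase (LOC_Os04g08270.1) had -0.82. Branching enzyme LOC_Os02g32660.1 had 2463 and 2594 CPM at control temperature and 990.4 and 1475 CPM after heat, with log2 fold change -1.04 (adjusted p = 0.755). Phosphorylase LOC_Os03g55090.1 had 1357 and 1544 CPM against 695.3 and 921.9 CPM, a log2 fold change of -0.84 (adjusted p = 0.789). For these 2 and pullulanase the temperatures did not overlap, and for AGPL2, which stood nearer to 0 at -0.16 by gene, they did not overlap either. Whether AGPL2 differs from them in its response was not tested.

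**Figure D5:**
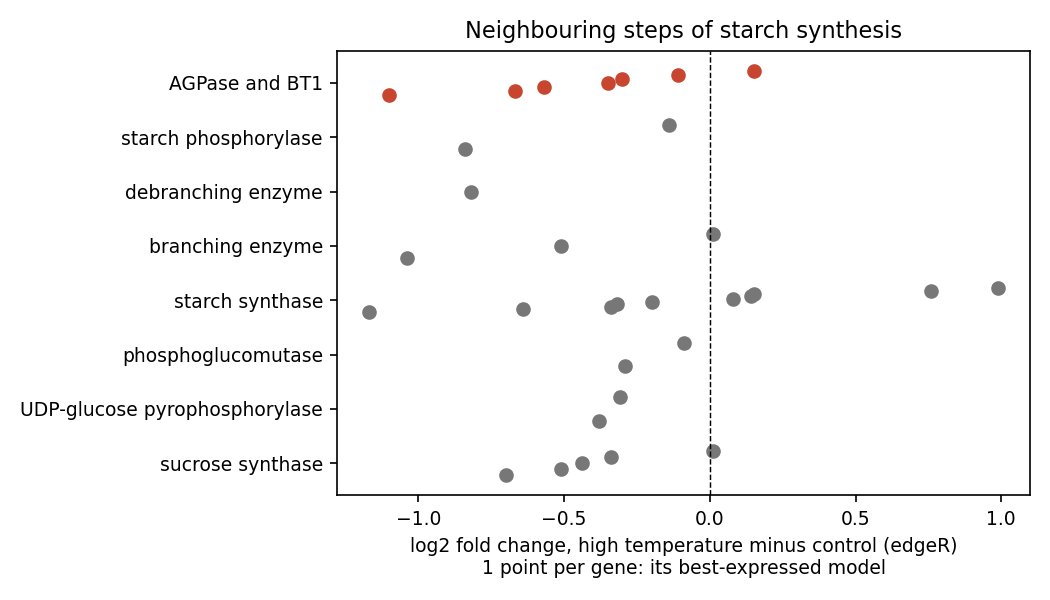
Log2 fold change (high temperature minus control, edgeR) of the best-expressed model of each gene, in 7 lists of enzymes that lead to or use ADP-glucose (grey) and in the 7 AGPase and BT1 genes (red). Points are genes. The members run from -1.10 (LOC_Os03g52460.1) to 0.15 (LOC_Os07g13980.1), and starch synthases lie on both sides of 0.

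Other tissues of the grain can carry plastid forms of AGPase, so their markers were read beside the members. The 27 chlorophyll A-B binding protein transcripts, markers of green pericarp, summed to 1212 and 978.8 CPM at control temperature and 1719 and 839.0 CPM at high temperature, and 7 transcripts of the ribulose bisphosphate carboxylase small chain to 131.1 to 195.9 CPM. The 6 oleosin transcripts of embryo and aleurone summed to 793.5 to 1288 CPM. None of these transcripts passed the adjusted threshold (edgeR), none was at 0 in all 4 libraries, and 1, 0 and 0 of them in that order had an unadjusted p under 0.05, as did 1900 of all 27358 transcripts tested. These 3 sums overlapped between temperatures. The endosperm's own prolamin transcripts (29) summed to 57257 and 116583 CPM in the controls and 36776 and 42415 CPM after heat, without overlap, and 9 of the 29 had an unadjusted p under 0.05 and none passed the adjusted threshold. The 17 glutelin transcripts summed to 224909 and 376931 CPM against 229613 and 317771 CPM, with overlap, and 1 of the 17 had an unadjusted p under 0.05. Both photosynthetic sums were highest in high temperature replicate 1, where AGPS2, AGPL2, AGPS1 and LOC_Os03g52460 were all lowest. The other members went the other way in that library. LOC_Os07g13980 was at its highest there (0.27 above its own mean on the log2 scale), and BT1 (0.16) and LOC_Os05g50380 (0.05) lay above their means. The part of any of these transcripts in the members' values was not tested.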

How the data were processed

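Endosperm RNA (poly(A), Illumina) of 4 libraries, 2 per temperature, was analysed from 1 table. The authors deposited read counts per transcript model, which the study describes as uniquely mapped reads overlapping exons, with the model's length as another column. Aligner, genome build and annotation release are not given in the sources used here. NA cells were read as 0. Control replicate 1 had 0 of them, control replicate 2 had 29117 and each high temperature library had 26717. The 4 columns of RPKM values by the authors were not used, and RPKM was recomputed from the counts.

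Counts were compared with edgeR 4.0.16 (TMM, quasi-likelihood test, Benjamini-Hochberg adjustment over all transcripts, no replicate block; common dispersion 0.0746) in R 4.3.3. The standard error is the log2 fold change over the square root of F. Alternatives used DESeq2 1.42.0, limma 3.58.1, other filters and scalings, sums per gene, a replicate block and each library left out. Ratios, markers and figures used Python 3.11.15 with numpy 2.4.6, pandas 2.3.3, scipy 1.17.1 and matplotlib 3.10.9. The fit was tested on counts simulated at the common dispersion, with changes larger than those of the members. It does not show whether differences of the members' size would be found. Column totals give the depth.

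The members and lists were chosen with earlier results of these data known. Text names every member model, the most expressed gene of each pathway list, the 5 genes nearest to AGPL2 and to BT1, and the most abundant pair. The starch synthases with an unadjusted p under 0.05 (edgeR) were named as well, after their values were seen. Fructokinase and glucose-6-phosphate translocator IDs and 3 of 4 debranching enzyme IDs were left out because their descriptions do not name the enzyme.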

Additional observations from a re-analysis of the deposited data

How the results depend on the processing

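Every difference is limited by having 2 libraries at each temperature. Alternative fits were counted per model, with the value from sums per gene repeated for each model of the gene. Models of a gene share reads, so these are not independent values. Of 270 alternative values of the members' fold changes, 264 kept their direction and their side of the adjusted threshold and 5 reversed, each when a library was left out. Those were LOC_Os02g10800.1 (-0.81 to 0.26 over the libraries left out), LOC_Os02g10800.2 (-0.73 to 0.28), LOC_Os02g10800.3 (-0.84 to 0.36) and LOC_Os07g13980.1 (-0.15 to 0.44). The median over the members lay between -0.37 (control replicate 1 left out) and -0.18 (control replicate 2 left out).

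The number of transcripts called over the whole table was 0 with edgeR, 365 without the filter on low counts, 58 with DESeq2, 33 with library size alone, and 59 and 78 with limma at pseudocounts of 1 and 0.1. It ran from 0 to 345 when single libraries were left out (42 without control replicate 1, 345 without control replicate 2). No member was called in any of these. Deviations of same-numbered libraries from the mean of their temperature correlated at -0.364 over 27358 transcripts. With 2 libraries at each temperature, crossed numbers give the same value with the opposite sign (0.364). Whether the numbers pair the samples was not tested. The fit with the replicate block called 0 transcripts, and a crossed replicate block, chosen after seeing the data, called 828, of which 1 was a member, LOC_Os03g52460.1. The causes were not tested.

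The AGPL2 to AGPS2 ratio of 0.625 was 0.734 from read counts and 0.169 from the best-expressed models, and the share of AGPL2 in the large subunit level was 66.7% from those models in place of 89.4%, since summing adds the 7 models of AGPL2. With library size alone, both high temperature libraries lay below both controls for 9.08% of transcripts in place of 17.7%, and for 4 members in place of 11.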
